A study of Mus musculus with 10 samples.

Results

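The 9 listed genes of the interferon and double-stranded RNA response were followed in limb buds of Dicer mutant and wild type mouse embryos. They were the sensors Eif2ak2, Ifih1 and Tlr3, the editing enzyme Adar, the regulatory factors Irf1 and Irf7, and the effectors Isg15, Ifit1 and Ifit3. Members were all probe sets annotated to exactly 1 of these symbols, bright or dim, which gave 13 of the 45037 probe sets that are not controls, from 8 of the 9 genes and of 18193 genes with a probe set of their own. The only probe set of Isg15 is also annotated to Gm9706, a second locus, so Isg15 has no value of its own here. None of the 13 passed the test between Dicer mutant and wild type limb buds, in all 10 arrays or in the 8 left without the pair numbered 2. Of all probe sets, 0% passed in the 10 arrays and 0.655% in the 8.

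Total RNA was hybridised on 5 arrays of the Dicer mutant group and 5 of the wild type group, numbered 1 to 5 in each. Parents homozygous for a floxed Dicer allele were mated to parents with 1 floxed allele and the prxcre driver, a Cre transgene active in limb bud mesenchyme, so every embryo carried at least 1 floxed allele. Cells of the limb bud outside the mesenchyme, such as ectoderm, blood and vessel cells, lie outside the range of the driver. Embryos were genotyped as mutant, wild type or heterozygous, and no array is labelled heterozygous. The sources used here do not state the genotype behind the name wild type, the embryonic stage, fore or hind limb, or how many embryos an array holds. Nothing says that arrays of a group came from separate embryos, so p-values measure only the spread between these samples, which may be technical. In bulk limb bud RNA, fewer cells of a type and less RNA per cell cannot be told apart.

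Long double-stranded RNA in the cytoplasm marks viral infection in most vertebrate cells. Sensors that bind it switch on interferon genes, and secreted interferon then acts through its receptor and STAT and IRF factors on stimulated genes such as the Ifit family. Dicer cuts double-stranded RNA too, chiefly the short hairpins of microRNA precursors, and it is itself a protein that binds double-stranded RNA.

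The DNA letters through which interferon acts are present in front of several of these genes. STAT and IRF factors bind the interferon-stimulated response element, searched here by its core GAAANNGAAA on both strands, and STAT dimers bind the gamma-activated site, searched as TTCNNNGAA. In RefSeq promoters of GRCm38.p6, from 250 bases before to 50 bases after each start, the first core was found at 1 start or more for 5 of the 9 listed genes and for 3.99% of all 27025 genes, or in 3.44% of all 32851 promoters. The second was found for 3 of the 9 genes and for 9.55% of all genes, or in 8.30% of all promoters. A match describes letters only and is not a bound site. The windows of Ifit1 and Ifit3 are shown as the effector genes measured here, and that of Irf1 as the factor gene with a match. Matches are in capitals, and those of the Ifit genes lie on the other strand.
Ifit1, chr19:34640770-34640828, plus strand: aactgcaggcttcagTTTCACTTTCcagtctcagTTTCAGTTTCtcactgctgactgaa
Ifit3, chr19:34583358-34583431, plus strand: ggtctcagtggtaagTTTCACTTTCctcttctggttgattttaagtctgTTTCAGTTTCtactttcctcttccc
Irf1, chr11:53769909-53769947, plus strand: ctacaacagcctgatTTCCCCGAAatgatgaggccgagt

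Ifit1 and Ifit3 each carry 2 matches to the first core, and the first matches lie 104 and 156 bases before the start. The letters of the 4 matches are the same in both genes, TTTCACTTTC followed by TTTCAGTTTC. The Irf1 match to the second core lies 90 bases before the first of its 2 starts; Eif2ak2 and the third start of Adar hold the other matches to it. Eif2ak2 has GAAAACGAAA at 18 bases after its start and Ifih1 has GAAACAGAAA at 32 bases after its start. Neither core was found in the windows of Tlr3 and Irf7.

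Both arrays numbered 2 had Dicer1 signals opposite to their labels. Signals of Dicer1 (1427941_at) were 226, 360, 221, 215 and 205 in Dicer mutant 1 to 5, against 425, 233, 372, 390 and 706 in wild type 1 to 5. The same held at 1460571_at, with 774 in the library labelled Dicer mutant 2 and 551 in the library labelled wild type 2. The members are therefore compared as labelled and also in the 8 arrays without these 2, a choice made with the Dicer1 values known; Dicer1 values of the 8 arrays therefore rest on that choice. Array medians lay between 145.8 and 152.8, and all 12 limb mesenchyme markers, such as Prrx1 and Twist1, had a mean signal at or above the median over all probe sets, 151.

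The interferon and double-stranded RNA response genes lay on both sides of the median signal over all probe sets. Signals of the 13 probe sets ran from 48.6 to 474, with 8 averaging at or above the median of 151 and 5 below it. The table used here holds no detection calls, so how far these 5 stand above background is unknown. The highest of the 10 arrays exceeded the lowest by 1.19-fold to 1.98-fold, with a median of 1.396-fold over the 13, beside a median of 1.363-fold over all probe sets.

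**Figure D1:**
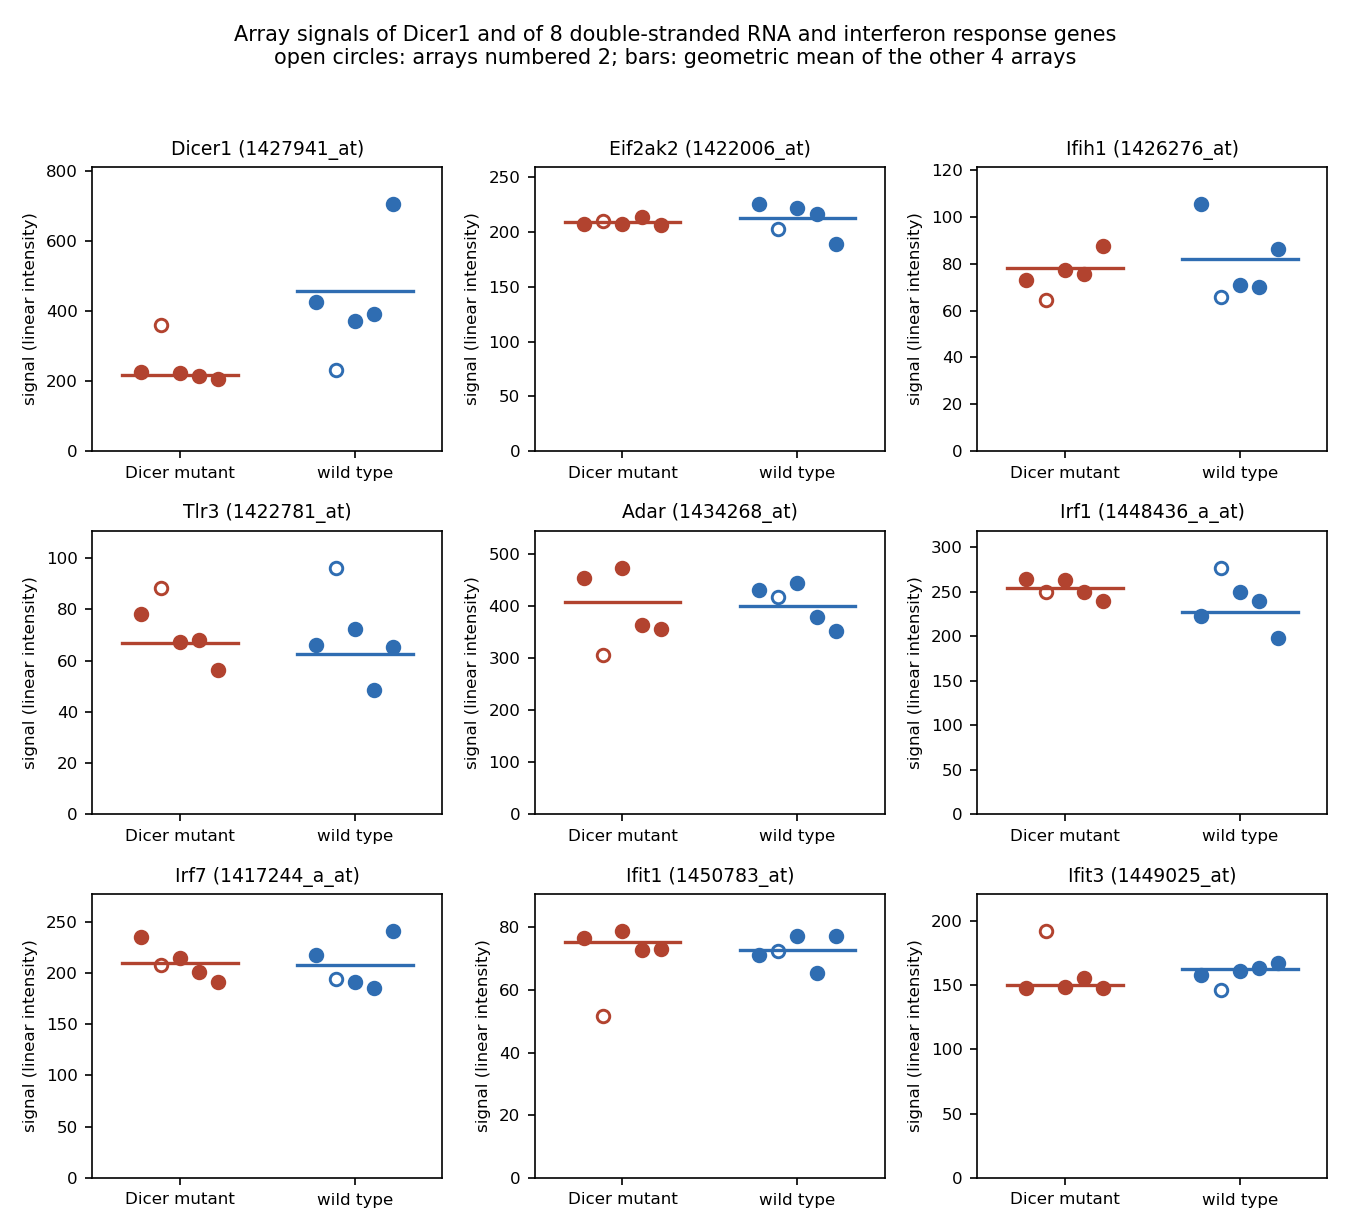
Signals (linear intensity, axes from 0) of Dicer1 and of the brightest probe set of each of the 8 genes, in Dicer mutant (red, left) and wild type (blue, right) arrays in the order of their numbers; open circles are the arrays numbered 2 and bars are geometric means of the other 4 arrays of a group. Dicer1 separates the filled circles of both groups, which rests on the choice of these arrays by their Dicer1 signals. Among the 8 genes only Ifit3 does so, by a margin small beside its level. The groups lay apart for 6.34% of all probe sets in these arrays.

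Eif2ak2 encodes PKR, the kinase that is activated by double-stranded RNA and shuts down translation. Signals at its brightest probe set (1422006_at) were 208, 210, 208, 214 and 206 in Dicer mutant 1 to 5, against 226, 203, 222, 217 and 189 in wild type 1 to 5. All 5 mutant values lay inside the wild type range. In the 8 arrays the log2 fold change was -0.027 (SE 0.074, n = 4 per group, limma adjusted p = 0.981), with a 95% interval of -0.19 to 0.14. Its other probe sets, 1422005_at and 1440866_at, gave -0.021 and -0.042 on the log2 scale.

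Ifih1 encodes MDA5, the sensor of long double-stranded RNA. Its only probe set (1426276_at) was dim, reading 73.0, 64.4, 77.3, 75.7 and 87.4 in Dicer mutant 1 to 5, against 105.5, 65.6, 70.8, 69.9 and 86.3 in wild type 1 to 5. The groups overlapped and the highest value was that of wild type 1. The log2 fold change in the 8 arrays was -0.068 (SE 0.13, limma adjusted p = 0.962), and it had opposite signs in pairs 1 and 3 (-0.20) and in pairs 4 and 5 (0.066).

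Tlr3 encodes the endosomal receptor for double-stranded RNA. Signals at the first probe set (1422781_at) were 78.1, 88.4, 67.4, 68.2 and 56.6 in Dicer mutant 1 to 5, against 66.1, 96.4, 72.4, 48.6 and 65.3 in wild type 1 to 5. Both arrays numbered 2 were the highest of their groups, and the groups overlapped. Its log2 fold change was 0.10 in the 8 arrays (SE 0.13, limma adjusted p = 0.937), while the second probe set, 1422782_s_at, gave -0.066 (SE 0.084), so the direction differed between its probe sets.

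Adar encodes the deaminase that edits adenosine in double-stranded RNA and so keeps the cell's own RNA from being sensed by MDA5. Its brightest probe set (1434268_at) read 454, 305, 474, 363 and 355 in Dicer mutant 1 to 5, against 430, 416, 444, 379 and 352 in wild type 1 to 5. In both groups the arrays numbered 1 and 3 were high and those numbered 4 and 5 were lower, and the mutant and wild type values overlapped. The log2 fold change was 0.031 in the 8 arrays (SE 0.12, limma adjusted p = 0.988), and -0.033 and -0.053 at the other probe sets, 1425405_a_at and 1439276_at. At 1439276_at pairs 1 and 3 gave -0.41 and pairs 4 and 5 gave 0.30, the widest split between the 2 sides among the 13 probe sets.

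Irf1 encodes a transcription factor induced by interferon gamma. Irf1 (1448436_a_at) read 264, 249, 263, 250 and 240 in Dicer mutant 1 to 5, against 223, 277, 249, 240 and 199 in wild type 1 to 5. Mutant arrays exceeded their same-numbered wild type arrays 4 times in 5, number 2 being the exception, although the groups overlapped in the 8 arrays as well. The log2 fold change was 0.16 (SE 0.086, n = 4 per group) with a 95% interval of -0.029 to 0.36, and 0.10 in all 10 arrays (SE 0.088). It was the largest of the 13 values in the 8 arrays, but without wild type 5 it was 0.099, below Tlr3 at 0.13, and in the 10 arrays it was 0.037 without wild type 5 and 0.16 without wild type 2. It did not pass the test, at a limma adjusted p of 0.656, with a range over its 18 alternatives of 0.299 to 0.828.

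Irf7 encodes the factor that amplifies interferon alpha and beta transcription. Irf7 (1417244_a_at) read 235, 208, 215, 201 and 191 in Dicer mutant 1 to 5, against 218, 194, 191, 185 and 241 in wild type 1 to 5. Among the 8 arrays, mutant values were higher in pairs 1, 3 and 4 and lower in pair 5, where the wild type array had the highest of the 10 signals. In the pair numbered 2 the library labelled Dicer mutant was the higher one. The log2 fold change in the 8 arrays was 0.016 (SE 0.10, limma adjusted p = 0.994), with 0.14 in pairs 1 and 3 and -0.11 in pairs 4 and 5.

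The Ifit genes encode proteins that bind foreign RNA, and they are among the genes that interferon raises most. Ifit1 (1450783_at), which was dim, read 76.7, 51.8, 78.8, 72.8 and 73.0 in Dicer mutant 1 to 5, against 71.1, 72.6, 77.3, 65.3 and 77.3 in wild type 1 to 5. The library labelled Dicer mutant 2 stood alone at the low end and the other 9 overlapped. The log2 fold change was -0.056 in the 10 arrays (SE 0.11) and 0.052 in the 8 arrays (SE 0.073, limma adjusted p = 0.944).

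Ifit3 (1449025_at) read 148, 192, 148, 155 and 148 in Dicer mutant 1 to 5, against 158, 146, 161, 163 and 167 in wild type 1 to 5. As for Dicer1, the order was turned round between the arrays numbered 2. The library labelled Dicer mutant 2 was the highest of the 10 and the library labelled wild type 2 the lowest. In the 8 arrays every mutant value was below every wild type value, with geometric means of 150 and 162. The difference was small and did not pass the test, the log2 value being -0.12 with an SE of 0.058 (4 arrays in each group, limma adjusted p = 0.615, 0.370 to 0.813 over its alternatives) and a 95% interval of -0.25 to 0.013. Mutant values lay wholly below wild type values for 1 of the 13 members and for 3.28% of all probe sets in the 8 arrays, and the groups lay apart in either direction for 6.34%. In the 10 arrays the groups lay apart for 0 members and for 0.422% of all probe sets.

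Across the 13 probe sets, 0 were called in the 10 arrays, where limma also called 0% of all probe sets, and 0 were called in the 8 arrays, where it called 0.655%, or 2.37% with the replicate number as a block, again with 0 members. None reached an unadjusted p below 0.05 in either comparison, beside 2.83% of all probe sets in the 10 arrays and 9.25% in the 8 arrays. By gene, the 10 arrays gave -0.012 for Eif2ak2, -0.059 for Ifih1, 0.059 for Tlr3, -0.065 for Adar, 0.10 for Irf1, 0.033 for Irf7, -0.056 for Ifit1 and -0.014 for Ifit3 on the log2 scale. Over the 13 probe sets log2 fold changes ran from -0.10 to 0.10 in the 10 arrays and from -0.12 to 0.16 in the 8 arrays. The median of the 8 genes was -0.013 in the 10 arrays and 0.024 in the 8 arrays, beside -0.011 and 0.0014 over all probe sets. Of the 8 genes, 5 were higher and 3 lower in the mutant arrays of the 8, whereas 3 were higher and 5 lower in the 10. The lowest adjusted p of any member was 0.615 in the 8 arrays and 1.00 in the 10.

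**Figure D2:**
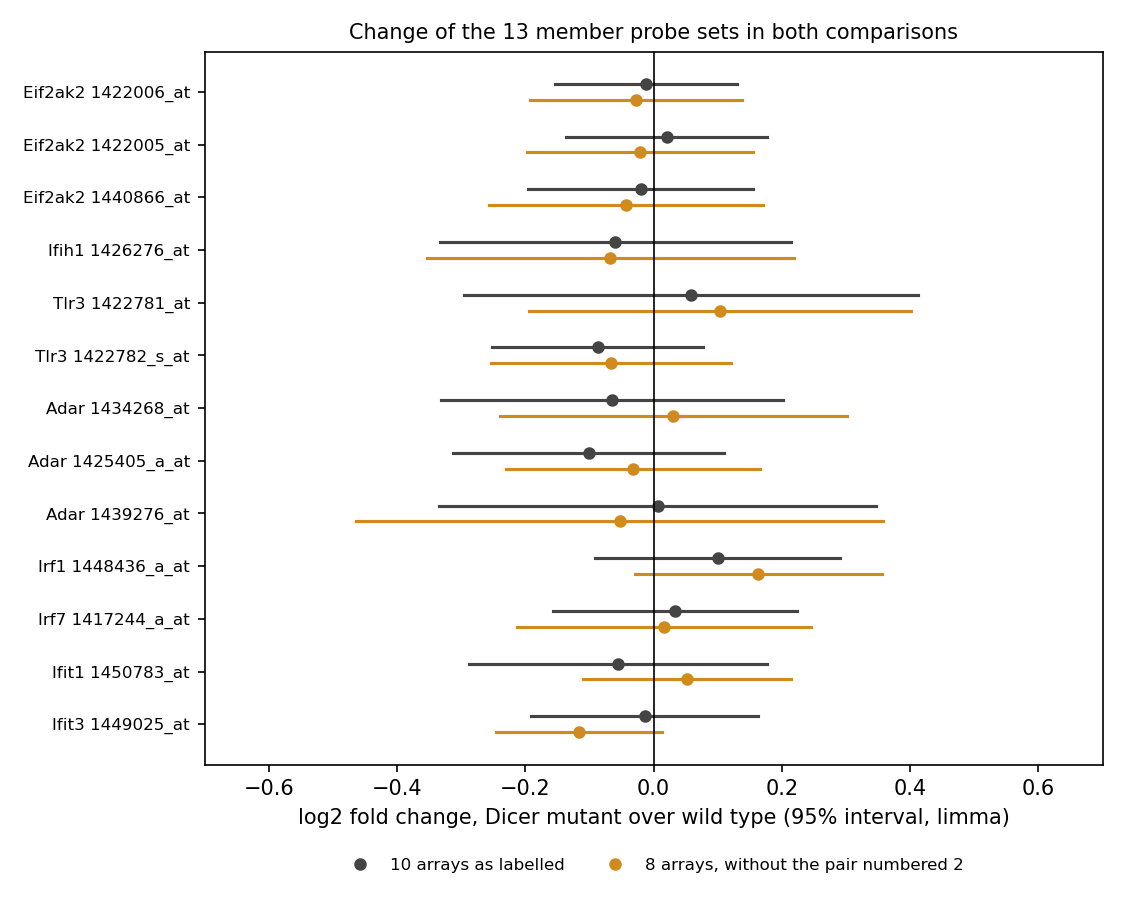
Log2 fold change of each member probe set, Dicer mutant over wild type (dots), with its 95% interval from limma (lines), in all 10 arrays (grey) and in the 8 arrays without the pair numbered 2 (orange). Every interval includes 0, and the intervals of the 8 arrays end between -0.46 and 0.40.

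The widest reach upwards in the 8 arrays was 0.40 on the log2 scale, a 1.32-fold rise, at Tlr3 1422781_at, and the widest reach downwards was -0.46, at Adar 1439276_at. In the 10 arrays the upper ends reached at most 0.41. These bounds are on the signal, and Ifih1, Tlr3 and Ifit1 averaged below the median signal of 151.

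The rest of the pathway was read from 6 lists that hold 117 genes, of which 103 had a probe set with 1 symbol. In the 8 arrays 1 of these 103 passed the test, beside 0.655% of all probe sets, and in the 10 arrays none did. The gene was Dicer1 itself, which belongs to the double-stranded RNA binding proteins. The 8 arrays were chosen by their Dicer1 signals, so the counts here that include Dicer1 rest in part on that choice. An unadjusted p below 0.05 was reached by 4 of the 103 in the 8 arrays, beside 9.25% of all probe sets, and by 2 in the 10 arrays, beside 2.83%. The groups lay apart in the 8 arrays for 5 of the 103 (Dicer1, Oasl2, Ifitm1, Eif2ak4 and Cdkn2aip, the last chosen for this after its values were seen), beside 6.34% of all probe sets. Leaving Dicer1 aside, log2 fold changes in the 8 arrays ran from -0.27 to 0.35, and 0 genes moved by more than 1.5-fold. The 103 genes split into 56 higher and 47 lower, with a median of 0.0079.

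Interferon ligand genes were dim, all 7 measured members averaging below 151. None passed the test. Ifng, the gene of interferon gamma, read 39.2, 29.2, 31.7, 35.9 and 35.97 in Dicer mutant 1 to 5, against 33.2, 35.9, 27.2, 37.4 and 29.3 in wild type 1 to 5, with a log2 fold change of 0.17 in the 8 arrays (SE 0.12, limma adjusted p = 0.782). The groups overlapped. Ifna11, an interferon alpha gene, had -0.16 (SE 0.18, adjusted p = 0.919).

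Among receptors and signal transducers 9 of 11 had a negative value in the 8 arrays and 10 of 11 in the 10. Their medians were -0.081 and -0.068, beside 0.0014 and -0.011 over all probe sets. None passed the test or reached an unadjusted limma p below 0.05 in either comparison. Ifnar2, a subunit of the interferon alpha and beta receptor, read 221, 245, 230, 190 and 192 in Dicer mutant 1 to 5, against 253, 260, 237, 200 and 292 in wild type 1 to 5. The mutant value was the lower one in 4 of the 4 pairs of the 8 arrays, and the groups overlapped. In the pair numbered 2 the library labelled Dicer mutant was also the lower one, so the order by Dicer1 signal is the opposite there. Its log2 fold change was -0.23 in the 8 arrays (SE 0.12, limma adjusted p = 0.647). Socs1, an inhibitor of JAK kinases, had -0.096 (SE 0.079, adjusted p = 0.855).

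Nucleic acid sensors and adaptors had a median of 0.0016 over 15 measured genes, 9 higher and 6 lower in the 8 arrays, and none passed the test. Tbk1, the kinase that activates IRF3, had a log2 fold change of 0.17 (SE 0.10, limma adjusted p = 0.755), and Mavs, the mitochondrial adaptor of MDA5, had -0.11 (SE 0.083, adjusted p = 0.823).

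The largest list, other interferon-stimulated genes, had 26 higher and 17 lower of 43 measured in the 8 arrays, with a median of 0.019, and none passed the test. Its extremes pointed opposite ways. Oasl2, of the oligoadenylate synthetase family, read 56.9, 44.0, 59.9, 66.9 and 70.9 in Dicer mutant 1 to 5, against 44.0, 54.2, 48.0, 54.7 and 52.8 in wild type 1 to 5. These dim signals lay apart between the groups in the 8 arrays, as for 3.06% of all probe sets with the mutant arrays higher, and in the pair numbered 2 the order was turned round. Its log2 fold change was 0.35 (SE 0.097, limma adjusted p = 0.191), and it passed under the replicate block (adjusted p = 0.0449) and with array weights (adjusted p = 0.0485), over a range of 0.0449 to 0.567 in its 17 alternatives. Ifitm1, of a family of membrane proteins that hinder virus entry, read 730, 752, 713, 646 and 668 in Dicer mutant 1 to 5, against 857, 697, 827, 772 and 872 in wild type 1 to 5. These groups also lay apart in the 8 arrays, with the mutant arrays lower, as for 3.28% of all probe sets. The log2 fold change of Ifitm1 was -0.27 (SE 0.077, limma adjusted p = 0.205, 0.0633 to 0.620 over its alternatives).

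**Figure D3:**
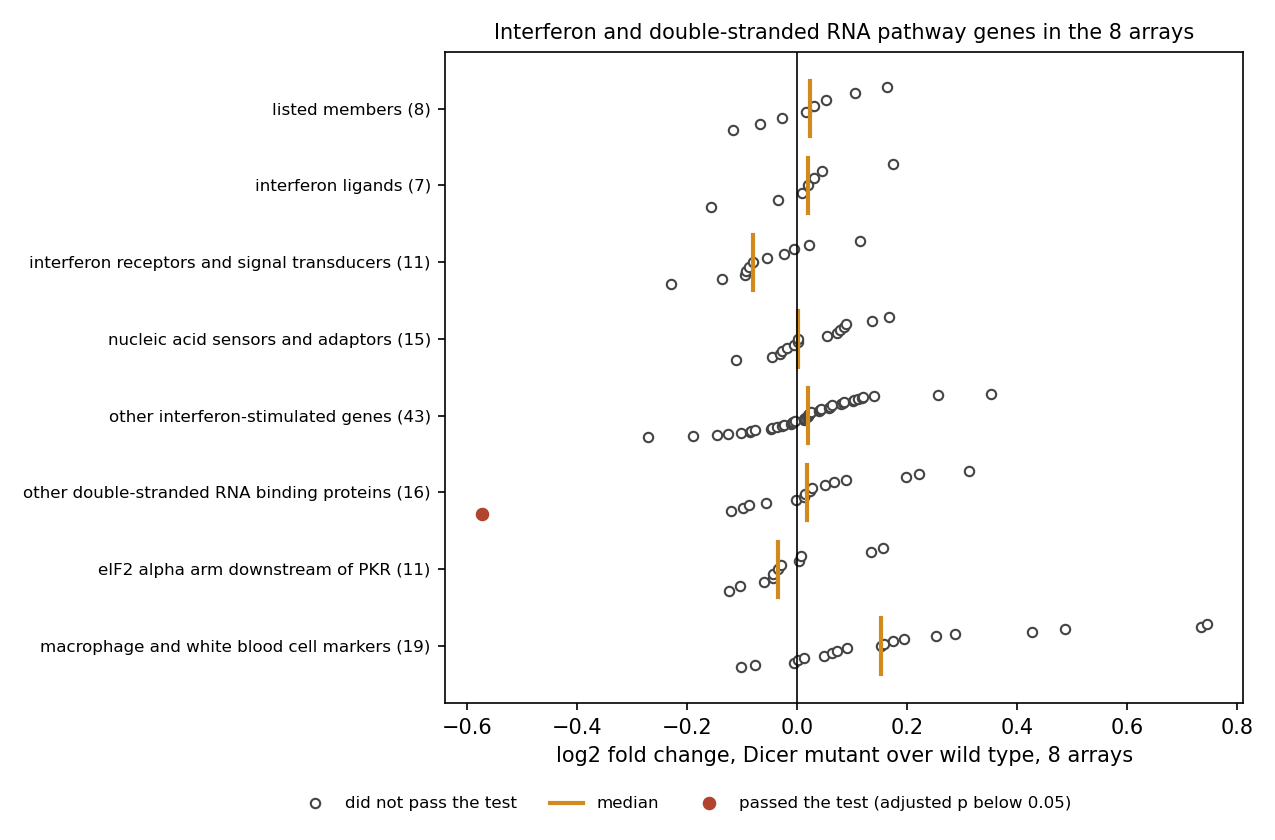
Log2 fold changes in the 8 arrays, Dicer mutant over wild type, 1 dot per gene, for the 8 member genes, 6 pathway lists and the white blood cell markers, with the number of measured genes in brackets and the list medians as orange bars. The single filled dot, the only gene that passed the test, is Dicer1, whose value rests on the choice of these arrays. The white blood cell markers have the highest median, 0.15 (0.015 in the 10 arrays).

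Other double-stranded RNA binding proteins had a median of 0.018 over 16 genes. Dicer1 was the only call, with -0.57 at its brightest probe set, 1460571_at (SE 0.096, limma adjusted p = 0.0359). At 1427941_at it had -1.08 (SE 0.18, limma adjusted p = 0.0335). Both values rest on the choice of the 8 arrays by their Dicer1 signals. Without any 1 array other than wild type 5 the adjusted p at 1460571_at lay between 0.0506 and 0.123, above the threshold of 0.05. Without wild type 5 it was 0.0171. The genes of the eIF2 alpha arm, where PKR acts together with the other eIF2 kinases, had a median of -0.034 over 11 genes with 4 higher and 7 lower. Eif2ak4, which encodes the amino acid sensing kinase GCN2, had 0.15 (SE 0.071, limma adjusted p = 0.559) with groups that lay apart in the 8 arrays, as for 3.06% of all probe sets with the mutant arrays higher, and Ppp1r15b, a subunit of the phosphatase that reverses the kinases, had 0.13 (SE 0.096, adjusted p = 0.808).

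White blood cells express many interferon-stimulated genes, so their markers are given beside these genes. Of 19 measured markers of macrophages and other white blood cells, 16 were higher and 3 lower in the mutant arrays of the 8, with a median of 0.15, and 0 passed the test, or 4 with the block (Ctss, Tyrobp, C1qa and C1qc), beside 2.37% of all probe sets. An unadjusted p below 0.05 was reached by 7 of the 19, beside 9.25% of all probe sets. Single markers ran from -0.10 to 0.75 on the log2 scale in the 8 arrays. In the 10 arrays 12 were higher and 7 lower, with a median of 0.015. Their summed signals ran from 3410 to 3935 in the mutant arrays and from 3176 to 3456 in the wild type arrays of the 8, against 3260 to 3935 in the mutant and 3176 to 4683 in the wild type arrays of the 10. Ctss, a lysosomal protease gene of macrophages, read 255, 190, 237, 295 and 221 in Dicer mutant 1 to 5, against 190, 309, 193, 197 and 167 in wild type 1 to 5. The groups lay apart in the 8 arrays for 4 of the 19 markers, beside 6.34% of all probe sets. Ctss was 1 of these, with the mutant arrays higher, as for 3.06% of all probe sets. Its order was turned round between the arrays numbered 2. Its log2 value was 0.43 (SE 0.10, limma adjusted p = 0.115, and 0.0250 with the block, over a range of 0.0250 to 0.622). The medians of the 8 members and of the 43 other interferon-stimulated genes in the same arrays were 0.024 and 0.019, and the part of white blood cells in the values of Oasl2 and the members was not tested. Of the marker lists of endothelium (10 measured), surface ectoderm (10), red blood cells (5) and limb mesenchyme (12), 0 genes passed the test in the 8 arrays. With the block 1 of these 37 did, beside 2.37% of all probe sets. It was Tbx4, of the limb mesenchyme list, at 0.58 (limma adjusted p = 0.00769 with the block, and 0.216 without it). The order of Tbx4 was turned round between the arrays numbered 2.

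In the library labelled Dicer mutant 2 Ifit1 was at its lowest and Ifit3 at its highest. Whether Irf7, Ifit1 and Ifit3 share a profile over the arrays was not tested. The mean of their centred log2 signals, in which such opposite values cancel, ran from -0.081 in wild type 4 to 0.14 in wild type 5. Of 11376 other genes compared, those closest to this mean were Rara, Tef, Slco4a1, Cntd1 and Mtpn, which differed from it by a root mean square of 0.034 to 0.037 on the log2 scale. The median over all compared genes was 0.15, and a gene with no variation at all would differ by 0.065.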

How the data were processed

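Biotin-labelled RNA of mouse limb buds was hybridised to Affymetrix arrays, 1 sample an array, per the labels' protocols. The deposited values are linear intensity, with array means close together (2% trimmed means of 276 to 289), made by the authors with GCOS 1.3 per the submitters' processing notes. The sources used here do not state the summarization or scaling target. Values below 1 were raised to 1 before conversion to log2. Of 45101 probe sets, 64 controls were dropped, no filter was set, and the other 45037 were fitted with limma 3.58.1 in R 4.3.3 (lmFit, eBayes with an intensity trend; Benjamini-Hochberg at 0.05). The fit was also run on simulated data, with noise drawn separately for each array. That simulation does not cover spread shared between arrays of the same number. Precision is limited by the number of arrays, 5 or 4 in a group.

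Symbols came from the platform annotation (34945 probe sets with 1 symbol, 932 with several, 9160 with none), and all 8 member genes matched RefSeq. A gene was represented by its brightest probe set, one ending _s_at or _x_at only where there was no other. From each pathway list the called genes were named, up to 4, or else the 2 with the smallest p. From the marker lists the genes called with the block were named, with Prrx1 and Twist1 as examples. The genes most alike are the 5 nearest by root mean square. Members, lists and the 8-array comparison were chosen with earlier results of these data known.

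No label says what a replicate number marks. In the 10 arrays, the residuals of arrays sharing a number (signal less the group mean, log2) correlated at 0.43, -0.18, 0.27, 0.67 and 0.41 for numbers 1 to 5, so the numbers were not taken to pair them. In the 8 arrays they correlated at 0.55, 0.55, 0.71 and 0.32 for numbers 1, 3, 4 and 5, all above 0.1, and blocked values are given where they change a call; the highest values between different numbers were 0.52 to 0.54. Alternatives were 2 scalings, offsets of 16 and 64, a filter at the median signal, no trend, array weights, the block, single arrays left out, pairs 1 and 3 or 4 and 5 alone, and the mean of a gene's probe sets. The planned summary over 9 genes covers 8, since Isg15 has no probe set of its own.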

Additional observations from a re-analysis of the deposited data

Results flagged for a closer look

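Both values that stood far from the rest of their group came from the library labelled Dicer mutant 2, whose Dicer1 signal goes against its label. Its Ifit1 signal of 51.8 was the lowest of the 5 mutant arrays, with a gap to the next that took up 0.779 of the group's range. Its Ifit3 signal of 191.8 was the highest of the 5, with a gap of 0.829 of the range. The limit for 5 samples is 0.71. Among 26 groups examined (13 probe sets in each genotype) 2 exceeded it, and chance gives about 1 in 20.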

How the results depend on the processing

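No member probe set passed the test under any alternative run, in the 10 or the 8 arrays, where the lowest adjusted p was 0.156. Of 314 log2 values of the 8 genes under the alternatives, 277 kept their direction and 37 turned, all between -0.20 and 0.21, and the causes were not tested. These counts overstate stability. The filter, the fit without trend and the block left each log2 value they gave unchanged, so those values could not turn. The values of pairs 1 and 3 alone and of pairs 4 and 5 alone are counted in both comparisons. In the 10 arrays Eif2ak2 turned to 0.0073 under quantile normalization, and Tlr3 to -0.019 with array weights and -0.014 as the mean of its probe sets. Pairs 1 and 3 alone gave 727 probe sets called over all, 1 pathway gene (Dicer1), a member median of 0.068, Adar at 0.086 and Ifit1 at 0.068. Pairs 4 and 5 alone gave 0 probe sets and 0 pathway genes, with Eif2ak2 at 0.053, Ifih1 at 0.066, Irf7 at -0.11, Ifit1 at 0.037 and Adar at -0.024. In the 8 arrays array weights gave 821 probe sets, 2 pathway genes and Adar at -0.084, and the mean of its probe sets gave Adar at -0.018. With the replicate block 1066 probe sets and 2 pathway genes were called, against 295 and 1 without it; beyond Oasl2, Tbx4 and the white blood cell markers named above it changed no call of a gene named here. Leaving out 1 array of the 10 gave -0.051 to 0.013 for Eif2ak2, -0.12 to 0.048 for Ifih1, -0.063 to 0.18 for Tlr3, -0.14 to 0.019 for Adar, 0.037 to 0.16 for Irf1, -0.0081 to 0.092 for Irf7, -0.099 to 0.052 for Ifit1 and -0.086 to 0.0091 for Ifit3. Leaving out 1 array of the 8 gave -0.084 to 0.00077 for Eif2ak2, -0.14 to 0.054 for Ifih1, -0.017 to 0.19 for Tlr3, -0.041 to 0.098 for Adar, 0.099 to 0.21 for Irf1, -0.039 to 0.088 for Irf7, 0.0015 (without wild type 4) to 0.083 for Ifit1 and -0.13 to -0.10 for Ifit3. It also gave 80 probe sets called (without wild type 3) to 642 (without wild type 5), and 0 to 1 pathway genes.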
